A study of Arabidopsis thaliana with 6 samples.

Results

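The members are the mature sequences of the Arabidopsis families ath-miR165 and ath-miR166, taken as every listed sequence whose name holds miR165 or miR166 followed by a letter or the end of the name. They make up 5 of the 349 mature sequences of the table and carry 13 miRNA names, because a sequence shared by several genes is listed once. Mature miRNAs were counted by small RNA sequencing in rosette leaves of soil-grown Arabidopsis thaliana plants at 3 weeks of age, with 2 biological replicates for each of 3 genotypes. The genotypes were the wild type (WT, titled Col), hyl1-2, a mutant of HYL1, the double-stranded RNA-binding partner of the miRNA-processing enzyme DCL1, and the triple mutant snrk2.2/3/6, which lacks the abscisic acid-activated kinases SnRK2.2, SnRK2.3 and SnRK2.6. No stress or hormone treatment is given for any library. Both mutations act in the whole plant, and mRNAs are not in the table, so neither the mutated genes nor markers of the leaf could be read from these data. In whole leaves, fewer cells of a type and less RNA per cell cannot be told apart.

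miR165 and miR166 are known for setting the upper and lower sides of leaves. They guide cleavage of the mRNAs of class III homeodomain-leucine zipper (HD-ZIP III) transcription factors, which promote the upper (adaxial) side, and so keep these factors out of the lower (abaxial) side. The guide strand lies on the 3′ arm of the hairpin precursor and is loaded into AGO1 or into AGO10, which holds it away from AGO1, while the 5′ strand is the passenger (star) strand and is mostly degraded.

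The mature sequences are printed as DNA, 5′ to 3′, with bases 2 to 8 (the seed) in capitals, because the families are told apart by very few bases.
miR166a-3p to g (guide, 7 genes): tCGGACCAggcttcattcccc
miR165a-3p/b (guide, 2 genes): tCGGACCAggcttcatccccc
miR166a-5p/b-5p (passenger, 2 genes): gGACTGTTgtctggctcgagg
miR166e-5p (passenger, 1 gene): gGAATGTTgtctggcacgagg
miR165a-5p (passenger, 1 gene): gGAATGTTgtctggatcgagg

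All 5 sequences were 21 nt long. The guide strands shared their seed and differed only by T17C, with the miR166 base first and positions counted from the 5′ end. Since only reads identical to a listed sequence were counted, this base alone decided whether a read went to miR165 or to miR166. The passenger strands miR166e-5p and miR165a-5p shared a seed, from which miR166a-5p/b-5p differed by C4A. Outside the seed, miR166a-5p/b-5p and miR166e-5p differed by T16A, and miR166a-5p/b-5p and miR165a-5p by C15A. In the TAIR10.1 genome the miR166 guide matched exactly at 7 places, the miR165 guide at 2, miR166a-5p/b-5p at 2 and the remaining passengers at 1 each. All of these places lay in 9 annotated precursors of 105 to 182 nt, with every guide on the 3′ arm and every passenger on the 5′ arm. Reads of a guide can therefore not be assigned to a gene, whereas miR166e-5p and miR165a-5p each have a single source gene.

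The miR165 guide is encoded by MIR165a (AT1G01183, guide at chr1:78932-78952, minus strand) and MIR165b (AT4G00885, chr4:369856-369876, minus strand). The miR166 guide is encoded by MIR166a (AT2G46685, chr2:19176241-19176261) and MIR166b (AT3G61897, chr3:22922301-22922321), both on the plus strand. The other miR166 genes lie on chromosome 5. They are MIR166c (AT5G08712, chr5:2838737-2838757), MIR166d (AT5G08717, chr5:2840708-2840728), MIR166f (AT5G43603, chr5:17516378-17516398) and MIR166g (AT5G63715, chr5:25504882-25504902) on the plus strand, and MIR166e (AT5G41905, chr5:16775524-16775544) on the minus strand. The guides of MIR166c and MIR166d start 1971 bases apart. An unnamed RNA gene, AT1G08765, is annotated on the strand opposite to MIR165a, and reads from it would not be identical to the miR165 sequences.

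Precursors that hold the listed passenger strands are shown as annotated in RefSeq, with the passenger and then the guide in capitals. The passengers of MIR165a and MIR166e tell which gene was processed. That of MIR166a does not, because MIR166b, which is left out, shares it.
MIR165a (chr1:78927-79037, minus strand): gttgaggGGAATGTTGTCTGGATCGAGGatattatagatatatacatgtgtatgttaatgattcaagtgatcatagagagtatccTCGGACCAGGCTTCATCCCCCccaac
MIR166a (chr2:19176108-19176277, plus strand): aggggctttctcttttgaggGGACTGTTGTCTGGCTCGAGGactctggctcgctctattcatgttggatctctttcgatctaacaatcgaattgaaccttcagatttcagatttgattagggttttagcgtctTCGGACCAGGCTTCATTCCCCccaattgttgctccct
MIR166e (chr5:16775520-16775662, minus strand): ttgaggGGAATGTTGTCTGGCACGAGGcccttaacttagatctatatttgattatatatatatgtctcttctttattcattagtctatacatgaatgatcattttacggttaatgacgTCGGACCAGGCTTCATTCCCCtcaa

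The stretch between the strands was 57 bases in MIR165a, 92 in MIR166a, 68 in MIR166b and 91 in MIR166e.

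To show what the guides can pair with, the mRNAs of 31464 genes were searched for ungapped sites complementary to either guide, with a G:U pair counted as a mismatch. No gene had a site with 2 mismatches or fewer. Only 5 genes, 0.0159% of those searched, had a site with at most 3 mismatches, and they were the 5 HD-ZIP III genes. The 3 distinct sites are shown as DNA, with capitals at the bases counted as mismatches to the miR166 guide, G:U pairs among them.
PHB and PHV: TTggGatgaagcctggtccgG
REV and HB-8: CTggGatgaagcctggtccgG
ATHB-15: CTggaatgaagcctggtccgG

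PHB, PHV and REV are known as adaxial determinants, and HB-8 and ATHB-15 for vascular development. The capital G at the fifth base of the first 2 sites faces position 17 of the guide, the base by which the guides differ. It forms a G:U pair with the miR166 guide, counted here as a mismatch, and a G:C pair with the miR165 guide. The last capital G faces the first base of either guide, also as a G:U pair. In PHB, PHV, REV and HB-8 the site had 3 mismatches to the miR165 guide and 4 to the miR166 guide, and in ATHB-15 it had 4 and 3. The sites lay in coding sequence and each was split by an intron, on chr2:14642530-14642666 for PHB, chr1:10799330-10799445 for PHV, chr5:24398787-24398898 for REV, chr4:15866872-15866974 for HB-8 and chr1:19412976-19413085 for ATHB-15. A match of letters is a description, and target mRNAs were not measured.

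Counts were given both as reads and as RPTM, the reads per 10000000 genome-matched reads of the library. The libraries held 16041013 to 19601046 genome-matched reads, of which 6670 to 34567 were mature miRNA reads. Replicates of hyl1-2 had 7141 and 6670 miRNA reads, against 34567 and 30427 in WT. The snrk2.2/3/6 replicates stood apart from each other, with 29014 and 10386 miRNA reads, and replicate 1 was above replicate 2 in RPTM for 57 of the 59 sequences tested. A floor of 3 reads per library was 1.53 to 1.87 RPTM. Intervals and floors cover counting error only.

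In WT the miR166 guide was among the most abundant miRNAs, with 3235 RPTM in replicate 1 and 2187 in replicate 2 (2711 ± 742, SD, n = 2), the third highest mean of all sequences. The next above was miR158a-3p at 2868 ± 117 RPTM and the next below miR159a at 2269 ± 287 RPTM, and the gaps to both were smaller than the spread of the miR166 guide. The miR165 guide ranked 11, with 565 and 307 RPTM (436 ± 182), between miR396b-5p at 442 ± 38.9 RPTM and miR3932b-5p at 320 ± 2.44 RPTM, again within its own spread. The guides differ by a single base, and every WT value of the miR166 guide was above every one of the miR165 guide.

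The passenger strands were far lower. In WT, miR166a-5p/b-5p had 48.9 and 71.8 RPTM (60.4 ± 16.2), miR165a-5p 20.8 and 22.1 RPTM (21.4 ± 0.914), and miR166e-5p 11.0 and 11.7 RPTM (11.3 ± 0.458). The last was close to the study's limit of 10 normalized reads and rests on 18 and 19 reads.

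**Figure D1:**
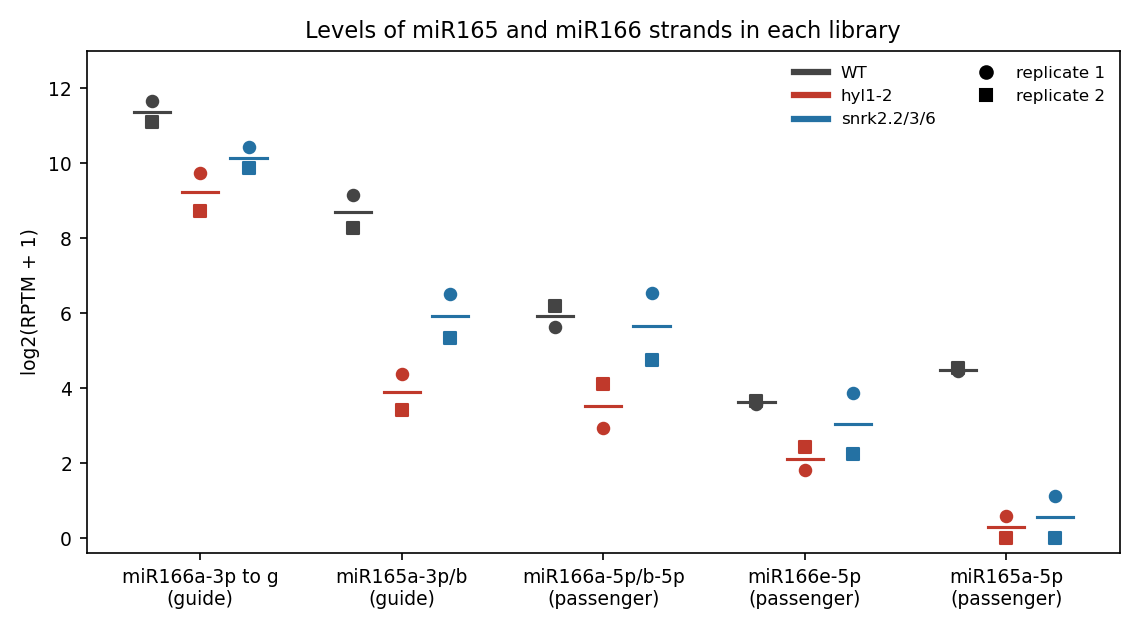
Levels of the 5 sequences on a scale of log2(RPTM + 1), by genotype (colour) and replicate (circle 1, square 2), with a bar at the mean of the 2 libraries. Both guides lie below both WT libraries in both mutants. So does miR165a-5p, which has at most 2 reads in any mutant library and is a description only. In snrk2.2/3/6, miR166a-5p/b-5p and miR166e-5p lie on both sides of WT.

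Summed over the 5 sequences, the family had 3881 and 2600 RPTM in WT. It had 885 and 455 RPTM without HYL1 and 1586 and 1000 RPTM without the SnRK2 kinases. The sum in hyl1-2 was 20.7% of WT and in snrk2.2/3/6 39.9% of WT, with all mutant libraries below both WT libraries. All miRNAs together stood at 18.3% of WT in hyl1-2 and 59.4% in snrk2.2/3/6. The family took 18.4% and 13.9% of the WT miRNA reads, 9.23% and 15.4% of those of snrk2.2/3/6, and 24.3% and 12.6% of those of hyl1-2, so that as a share of miRNA reads the genotypes overlapped.

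The first comparison asked how these sequences depend on HYL1. miR165 fell to a few percent of WT in hyl1-2. The miR166 guide fell less relative to genome-matched reads, a direction that turned with TMM factors, and was still one of the most abundant miRNAs of the mutant. Of the miR165 guide, 923 and 501 reads were counted in the WT libraries, and 39 and 18 (19.9 and 9.78 RPTM) remained in hyl1-2. Its mean was 14.8 ± 7.15 RPTM, 3.40% of WT or 29.4-fold lower, and its rank moved from 11 to 21. Of the miR166 guide, WT held 5290 and 3564 reads, and hyl1-2 held 1677 and 782 (856 and 425 RPTM). Its mean of 640 ± 305 RPTM was 23.6% of WT, and by rank it moved from 3 to 2.

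Among the passengers the miR165 strand was the one farthest below WT, but it was high only in WT and adds no support to the guide. miR165a-5p went from 34 and 36 reads in WT to 1 and 0 in hyl1-2, at or under the floor in both libraries and at least 13.6-fold lower than WT. miR166a-5p/b-5p went from 80 and 117 reads to 13 and 30 (11.5 ± 6.84 RPTM, 19.0% of WT). miR166e-5p went from 18 and 19 reads to 5 and 8 (3.45 ± 1.27 RPTM, 30.4% of WT). For all 5 sequences both hyl1-2 libraries were below both WT libraries. How many other sequences did so was not counted, and all miRNAs together stood at 18.3% of WT. Of the sequences with at least 10 RPTM in WT, 89.8% had a hyl1-2 mean of at most 50% of WT, so a fall is not particular to the members.

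A 2-fold rule, a mutant mean of at most 50% of WT among sequences with at least 10 RPTM in WT, was met by 5 of the 5 members in hyl1-2, where 89.8% of the 59 sequences with that WT level met it. The counts were then tested by quasi-likelihood in edgeR, with p-values adjusted after Benjamini and Hochberg over the sequences averaging 10 reads or more over the 6 libraries. These were also 59, of which 56 belong to the former set, and they include all 5 members. miR165a-5p passed this filter only through WT, with a mean of 35 reads there against 0.5 in hyl1-2 and 1 in snrk2.2/3/6, so its calls are given as a description and support nothing. In hyl1-2, 4 of the 5 members were called lower at an adjusted p under 0.05, against 67.8% of all tested sequences, and 3 of 4 when miR165a-5p is left out, so the number called is not particular to them. The miR165 guide fell by 4.87 on the log2 scale (SE 1.10, edgeR adjusted p = 0.000127), and it was also below WT with TMM factors, by 2.01 (adjusted p = 0.00568). The miR166 guide had a log2 fold change of -2.08 (SE 0.71, edgeR adjusted p = 0.00885), but with TMM factors it was 0.80 above WT (adjusted p = 0.163). miR166a-5p/b-5p was at -2.39 (SE 0.98, edgeR adjusted p = 0.0236) and at 0.21 with TMM factors (adjusted p = 0.787). miR166e-5p, at -1.70 (SE 1.05), missed the threshold (edgeR adjusted p = 0.134) and was at 0.95 with TMM factors.

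TMM factors, computed from the miRNA counts, moved the median log2 fold change of all tested sequences in hyl1-2 from -2.62 to 0.12, and that of the members from -2.39 to 0.21. Set against the other miRNAs in this way, the miR165 guide was below WT, and the miR166 sequences were at or above WT without passing the test. Leaving out any of the WT or hyl1-2 libraries, miR166 lost its calls, with edgeR adjusted p of 0.0665 to 0.189 for the guide and 0.0929 to 0.262 for miR166a-5p/b-5p. The miR165 guide lost its call without hyl1-2 replicate 2 (adjusted p = 0.0535). In such fits the remaining library of a genotype is assumed to vary like the other genotypes. The p-values from all 6 libraries measure only the spread between 2 libraries per genotype.

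The second comparison asked whether the loss of the SnRK2 kinases changes these sequences. In snrk2.2/3/6 the miR165 strands were farthest below WT, where miR165a-5p is a description only. Both libraries of the miR166 guide were below WT, and the miR166 passengers overlapped WT. The miR165 guide had 152 and 63 reads, or 90.0 and 39.3 RPTM, and its mean of 64.6 ± 35.9 RPTM was 14.8% of WT or 6.75-fold lower. The miR166 guide had 2346 and 1493 reads, or 1389 and 931 RPTM, and its mean of 1160 ± 324 RPTM was 42.8% of WT. For both guides the mutant libraries were below both WT libraries. How many other sequences did so was not counted, and all miRNAs together stood at 59.4% of WT.

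miR165a-5p had 2 and 0 reads in snrk2.2/3/6, at or under the floor and at least 11.8-fold lower than WT. miR166a-5p/b-5p had 156 and 42 reads, or 92.3 and 26.2 RPTM, one library above and one below both WT libraries, with a mean of 59.3 ± 46.8 RPTM or 98.2% of WT. miR166e-5p, with 23 and 6 reads (13.6 and 3.74 RPTM), also lay on both sides of WT at 76.6% of its mean. The passenger of miR165 was thus near absent in this mutant. It was high only in WT, so this is a description and no contrast with the miR166 passengers is drawn from it.

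By the 2-fold rule 3 of the 5 members were reduced in snrk2.2/3/6, where 45.8% of the 59 sequences with at least 10 RPTM in WT met it. Without replicate 1 of this mutant it was 5 of 5. By edgeR 3.39% of all tested sequences, 2 of 59, were called lower. The single member called, miR165a-5p (adjusted p = 0.00737), is the one that passed the filter only through WT, and it lost its call without snrk2.2/3/6 replicate 2 (adjusted p = 0.102). Of the other 4 members edgeR called 0, with 1 at an unadjusted p under 0.05, the miR165 guide, which DESeq2 on genome-matched totals called (adjusted p = 0.00295).

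The miR165 guide had the third lowest fold change in snrk2.2/3/6, -2.75 on the log2 scale (SE 0.99), with an edgeR adjusted p of 0.121 that missed the threshold. It passed in 9 of 17 alternatives, over which the adjusted p went from 0.000987 to 0.962. TMM factors gave -1.85 (adjusted p = 0.0156), and leaving out replicate 1 of the mutant gave -3.47 (adjusted p = 0.00739). The miR166 guide was at -1.22 (SE 0.69, edgeR adjusted p = 0.334), or -0.17 with TMM factors, and passed in 0 of 17 alternatives. miR166a-5p/b-5p was at -0.03 (SE 0.91, edgeR adjusted p = 0.995) and miR166e-5p at -0.38 (SE 0.99, edgeR adjusted p = 0.855), and both were above 0 with TMM factors, at 0.69 and 0.37. The median over all tested sequences was -0.72, and 0.07 with TMM factors, and that over the members was -1.22 and -0.17.

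**Figure D2:**
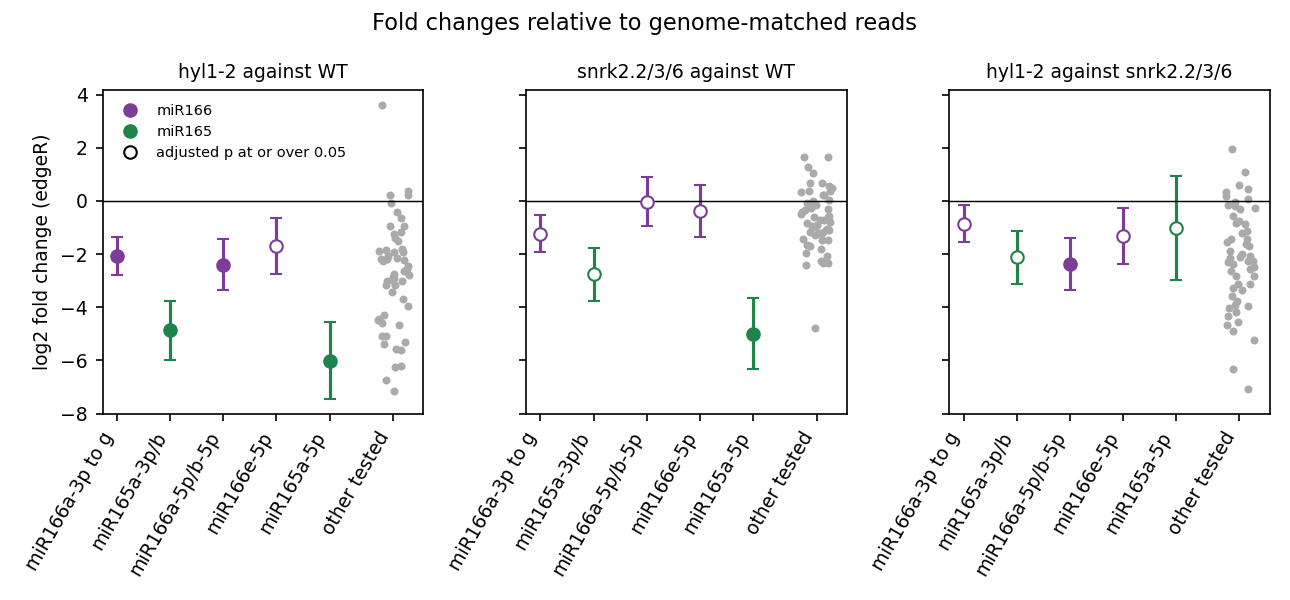
Log2 fold changes from edgeR with their standard errors for the 5 sequences in each comparison, relative to genome-matched reads, with the other tested sequences as grey points spread sideways. Filled circles passed an adjusted p of 0.05. The values of miR165a-5p rest on 0 to 2 reads in the mutants and depend on the prior count. The miR165 guide lies lower than the miR166 guide in all 3 panels.

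The third comparison set the mutants against each other and shares its libraries with the other 2. miR166a-5p/b-5p was lower in hyl1-2 than in snrk2.2/3/6, with a log2 fold change of -2.37 (SE 0.97, edgeR adjusted p = 0.0382), the only 1 of the 5 members called where 45.8% of all tested sequences were. The call held in 5 of 17 alternatives, with adjusted p from 0.00706 to 0.534. TMM factors gave -0.48 (adjusted p = 0.534), and leaving out snrk2.2/3/6 replicate 1 gave -1.19 (adjusted p = 0.215). The miR165 guide was at -2.12 (SE 0.99, edgeR adjusted p = 0.0636). The miR166 guide was at -0.86 (SE 0.69, edgeR adjusted p = 0.310) and at 0.98 with TMM factors. miR166e-5p was at -1.32 (SE 1.06, edgeR adjusted p = 0.310) and at 0.58 with TMM factors. For miR165a-5p, with at most 2 reads in any mutant library, no difference was detectable at this depth.

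A ratio of strands within a library does not depend on how libraries are scaled. Of the guide reads of the family, miR165 made up 14.9% and 12.3% in WT (95% Wilson intervals 14.0 to 15.8% and 11.3 to 13.4%). In hyl1-2 its share was 2.27% and 2.25% (1.67 to 3.09% and 1.43 to 3.53%), and in snrk2.2/3/6 6.08% and 4.05% (5.21 to 7.09% and 3.18 to 5.15%). The 3 genotypes did not overlap in this share. The intervals of the replicates overlapped in hyl1-2 but not in WT or snrk2.2/3/6. The mean share was 13.6 ± 1.79% in WT, 6.01-fold lower in hyl1-2 at 2.26 ± 0.0161%, and 2.68-fold lower in snrk2.2/3/6 at 5.07 ± 1.44%. A two-sided exact permutation test gave p = 0.333 for each mutant against WT and for the mutants against each other, the smallest that 2 libraries against 2 allow. The log2 fold change of the miR165 guide minus that of the miR166 guide was -2.79 in hyl1-2 and -1.53 in snrk2.2/3/6.

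Among passenger reads miR165a-5p made up 25.8% and 20.9% in WT. In hyl1-2 it was 1 of 19 reads and 0 of 38, and in snrk2.2/3/6 2 of 181 and 0 of 48. Each mutant library was below both WT libraries in this share. The Wilson interval of hyl1-2 replicate 1 (0.935 to 24.6%) overlapped those of WT (19.1 to 33.8% and 15.5 to 27.6%), and those of the other mutant libraries lay lower. Since miR165a-5p was high only in WT, this share is a description and adds no support to that of the guides. The strands do not come from the same genes, since miR165a-5p comes from MIR165a alone and the miR166 passengers from 3 of the 7 miR166 genes. The exact permutation p was again 0.333 for each mutant against WT.

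**Figure D3:**
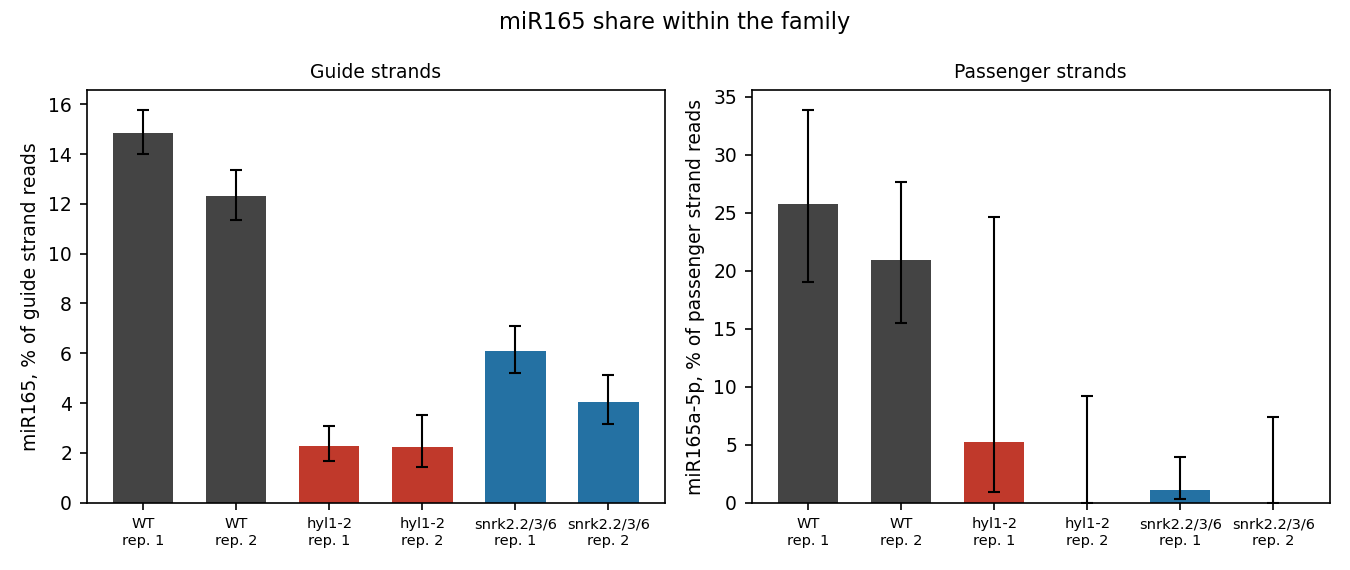
Share of miR165 among the guide strand reads (left) and among the passenger strand reads (right) of the family, in percent, for each library. Bars are the shares and lines the 95% Wilson intervals, which cover counting error only. Guide shares are 12.3 to 14.9% in WT, 4.05 to 6.08% in snrk2.2/3/6 and 2.25 to 2.27% in hyl1-2.

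The listed passengers were also taken as a share of the reads of both strands. The guide reads in this share include those of genes without a listed passenger, so it moves with the genes expressed as well as with the strand kept. For miR166 the WT libraries gave 1.82% and 3.68%, those of hyl1-2 gave 1.06% and 4.63%, and those of snrk2.2/3/6 gave 7.09% and 3.11%. The genotypes overlapped, and the replicates of each genotype differed beyond their Wilson intervals. For miR165 it was 3.55% and 6.70% in WT and lower in every mutant library. It was 1 of 40 reads and 0 of 18 in hyl1-2, where 0 of 18 allows a share of up to 16.7%, and 2 of 154 and 0 of 63 in snrk2.2/3/6, where 0 of 63 allows up to 4.76%. The exact permutation p was 0.333 for each mutant against WT. The Wilson intervals of all 4 mutant libraries overlapped that of WT replicate 1 (2.55 to 4.92%), and that of snrk2.2/3/6 replicate 1 (0.357 to 4.61%) did not reach that of WT replicate 2 (4.88 to 9.14%).

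**Figure D4:**
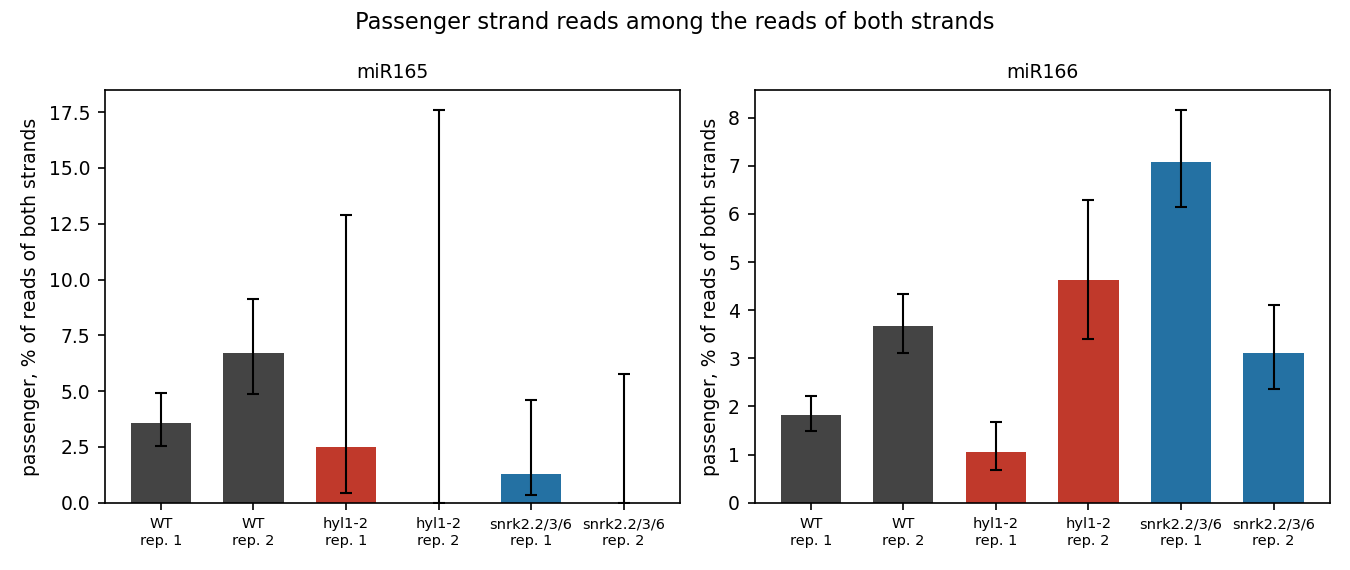
Passenger strand reads in percent of the reads of both strands, for miR165 (left) and miR166 (right, with its own axis), in each library. Bars are the shares and lines the 95% Wilson intervals. The intervals of miR165 in hyl1-2 are wide because they rest on 40 and 18 reads, and the miR166 shares overlap between genotypes.

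Replicates of WT and of hyl1-2 differed in opposite directions for the guides and for miR166a-5p/b-5p. The replicate 1 to replicate 2 ratio of RPTM was 1.48 in WT and 2.01 in hyl1-2 for the miR166 guide, and 1.84 and 2.03 for the miR165 guide. For miR166a-5p/b-5p it was 0.682 and 0.407, for miR166e-5p 0.944 and 0.587, and for all miRNA reads 1.13 and 1.01. For miR165a-5p it was 0.941 in WT, with too few reads for a ratio in hyl1-2. In snrk2.2/3/6 guides and passengers were all higher in replicate 1, by 1.49-fold for the miR166 guide, 2.29-fold for the miR165 guide and 3.53-fold for miR166a-5p/b-5p, beside 2.65-fold for all miRNAs. The part of these library differences in the results above was not tested.

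The level pattern most like that of the miR166 guide over the 6 libraries was that of miR160a-5p/b/c-5p, with Pearson's r = 0.985 on log2(RPTM + 1), followed by the miR165 guide at 0.983 and miR170-5p/miR171a-5p at 0.973. For the miR165 guide the order was the miR166 guide at 0.983, miR167d at 0.972 and miR824-3p at 0.968. The medians over the 58 other tested sequences were 0.810 and 0.836, and all points share the same 6 libraries.

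Other miRNAs of leaf development, miR160, miR164, miR319, miR390 and miR396, gave 9 tested sequences of 16 listed. In hyl1-2, 5 of the 9 were lower and 0 higher, with a median log2 fold change of -2.20, against 67.8% lower and a median of -2.62 over all tested sequences. The lowest adjusted p were those of miR319a/b, known to target TCP factors of leaf growth, at -6.20 (edgeR adjusted p = 1.03e-05), and of miR396a-3p, whose partner strand targets growth-regulating factors, at -5.61 (edgeR adjusted p = 4.16e-05). In snrk2.2/3/6, 1 of the 9 was lower, miR319a/b at -4.78 (edgeR adjusted p = 0.000961), 0 were higher and the median was -1.18, against 3.39% lower and a median of -0.72 over all tested sequences. The WT libraries held 281 and 49 of its reads, the snrk2.2/3/6 libraries 9 and 3, and the hyl1-2 libraries 4 and 1. Like miR165a-5p, miR319a/b thus passed the filter on mean reads only through WT. Its calls in both mutants are therefore a description and support nothing. The pair made up the tested sequences called in snrk2.2/3/6.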

How the data were processed

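Small RNA of rosette leaves was sequenced on an Illumina HiSeq instrument from 6 libraries. The authors trimmed adaptors, retained lengths from 18 to 30 nt, and among the reads placed on TAIR10 counted those that match an entry of miRBase release 21 exactly. Neither mapper nor mismatch setting is given in the sources used here. The deposited counts are whole reads without normalization. The deposited RPTM values are a signal, each count scaled to the genome-matched reads of its library. Genotypes and replicate numbers came from the sample labels.

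Sequences averaging 10 or more reads per library (59) were tested: their counts were fitted with edgeR 4.0.16 (R 4.3.3; glmQLFit, glmQLFTest) to all 6 libraries by genotype alone, taking genome-matched totals for library sizes, without TMM factors. The script was tested on simulated data. Standard errors are the size of each log2 fold change over the root of its F statistic. A group with at most 3 reads in every library is compared as a bound, with 3 reads per library as the floor. Replicates of a genotype differed by more than sampling noise (chi-square over its degrees of freedom 10.5, 13.6 and 18.0) and were counted separately. Alternatives used TMM factors, total miRNA counts, DESeq2 1.42.0, limma 3.58.1, other filters, fits of 2 genotypes, the replicate number as a block, and left-out libraries. Sequences were matched to the RefSeq genome TAIR10.1 with Python 3.11.15 and pandas 2.3.3, intervals computed with scipy 1.17.1, and figures drawn with matplotlib 3.10.9.

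Other sequences were named if they belonged to the leaf development list (at most 2 per mutant past the threshold), were the 3 most correlated with a guide, or were next to a guide in the WT order. The members and lists were chosen with earlier results of these data known.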

Additional observations from a re-analysis of the deposited data

Results flagged for a closer look

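The mutants differed in miR166a-5p/b-5p by a test of the difference itself, with a log2 fold change of -2.37 in hyl1-2 against snrk2.2/3/6 (edgeR adjusted p = 0.0382). The call was lost in 12 of 17 alternatives, among them TMM factors with -0.48 (adjusted p = 0.534) and the fit without snrk2.2/3/6 replicate 1 with -1.19 (adjusted p = 0.215). The hyl1-2 libraries held 13 and 30 of its reads, the snrk2.2/3/6 libraries 156 and 42, and the WT libraries 80 and 117.

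The share of miR166e-5p among the miR166 passenger reads moved in opposite directions in the mutants. The WT libraries gave 18.4% and 14.0%, the snrk2.2/3/6 libraries 12.8% and 12.5% (mean 12.7%), and the hyl1-2 libraries 27.8% and 21.1% (mean 24.4%). Both hyl1-2 libraries were above and both snrk2.2/3/6 libraries below both WT libraries, but the shares rest on 23 and 6 reads of miR166e-5p in snrk2.2/3/6 and 5 and 8 in hyl1-2 and the Wilson intervals of all 6 libraries overlapped. The exact permutation p between the mutants was 0.333, the smallest possible.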

How the results depend on the processing

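Scaling turned the direction of miR166 sequences in the comparisons that follow. With TMM factors, total miRNA counts and DESeq2's own size factors, respectively, the log2 fold changes in hyl1-2 became 0.80, 0.38 and 0.53 for the miR166 guide (miR166a-3p to g), 0.21, 0.032 and 0.14 for miR166a-5p/b-5p, and 0.95, 0.72 and 0.84 for miR166e-5p. In snrk2.2/3/6 the miR166 guide stayed below WT, at -0.17, -0.27 and -0.12, while they became 0.69, 0.63 and 0.71 for miR166a-5p/b-5p and 0.37, 0.31 and 0.36 for miR166e-5p. For hyl1-2 set against snrk2.2/3/6 they became 0.98, 0.65 and 0.65 for the miR166 guide, 0.58, 0.41 and 0.48 for miR166e-5p, and 0.69, 0.49 and 0.71 for miR165a-5p. Under leave-one-out the values went from -1.20 to 0.61 for miR166a-5p/b-5p and from -1.58 to 0.26 for miR166e-5p in snrk2.2/3/6, and from -3.19 to 2.21 for miR165a-5p between the mutants. The miR165 guide was below WT in both mutants under all 17 alternatives. As a share of miRNA reads the family stood at 114% of WT in hyl1-2 and 76.4% in snrk2.2/3/6.

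The members called lower in hyl1-2 were 2 with TMM factors, 2 with total miRNA counts, 1 with DESeq2's own size factors, 0 with no filter and 1 to 5 under leave-one-out. In snrk2.2/3/6 they were 2 with each of these 3 scalings, with DESeq2 on genome-matched totals, with limma at either pseudocount and with the replicate block, 0 with no filter, and 0 to 2 under leave-one-out. Between the mutants they were 2 with DESeq2 on genome-matched totals and with limma at either pseudocount, 0 with the 3 scalings, no filter, only the 2 genotypes compared or the crossed replicate block, and 0 to 3 under leave-one-out. By the 2-fold rule, 3 members were reduced in hyl1-2 at a WT minimum of 50 RPTM. These were all the members at that WT level, since miR165a-5p (21.4 RPTM) and miR166e-5p (11.3 RPTM) lay under it. When scaled to miRNA reads, 2 members were reduced in hyl1-2. In snrk2.2/3/6 the number reduced was 2 to 5 under leave-one-out.

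Of all tested sequences, the lower and higher calls in hyl1-2 were 40 and 1. They became 15 and 10 with TMM factors, 17 and 8 with total miRNA counts, 10 and 10 with DESeq2's own size factors, 18 and 0 at a mean of at least 50 reads, and 0 and 0 of 174 with no filter, where 64 were lower and 1 higher at an unadjusted p under 0.05. Leave-one-out gave 16 to 49 lower and 0 to 1 higher. In snrk2.2/3/6, 2 and 0 became 4 and 4 with TMM factors or total miRNA counts, 4 and 5 with DESeq2's own size factors, 4 lower with DESeq2 on genome-matched totals, 6 and 5 lower with limma at pseudocounts of 1 and 0.5, 0 lower with no filter (12 at an unadjusted p under 0.05) and 0 to 23 lower under leave-one-out, the highest without snrk2.2/3/6 replicate 1. Between the mutants, 27 and 0 became 8 and 10 with TMM factors or DESeq2's own size factors, 13 and 10 with total miRNA counts, 14 lower at a mean of at least 50 reads, 0 lower with no filter, 13 lower with only the 2 genotypes compared, 1 higher with DESeq2 on genome-matched totals or limma at either pseudocount, and 2 to 39 lower and 0 to 4 higher under leave-one-out. The settings also differ in the number of sequences tested, so fewer calls need not be a smaller share. The main fits tested 59 sequences, and those at a mean of at least 50 reads tested 25. In hyl1-2 the lower calls were thus 40 of 59 and 18 of 25. Between the mutants they were 27 of 59 and 14 of 25, and 13 of 47 with only the 2 genotypes compared. With no filter 174 sequences enter the adjustment, and the spread between replicates is also estimated over all of them. Which of these removed the calls, and the cause of the other changes, was not tested.

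The sample labels do not say whether same-numbered libraries were handled together, and this was not tested. Deviations from the genotype means correlated at 0.29 between WT and hyl1-2, -0.30 between WT and snrk2.2/3/6 and -0.18 between the mutants. With the replicate block 38 sequences were called lower in hyl1-2 against WT, and 3 in snrk2.2/3/6. The crossed replicate block, chosen after seeing the data, gave 42 and 2. Members with under 40 reads in every library, miR166e-5p and miR165a-5p, are limited by depth. In hyl1-2 this also holds for the miR165 guide (39 and 18 reads) and miR166a-5p/b-5p (13 and 30 reads).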
